A study of Mus musculus with 4 samples.

Results

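The respiratory chain and the ATP synthase were followed through 97 gene symbols, of 24235 genes in the tables, in 4 messenger RNA libraries of mouse bone marrow macrophages. Members were all symbols beginning with Nduf (complex I), Sdha, Sdhb, Sdhc or Sdhd (complex II and its helpers), Uqcr (complex III), Cox4 to Cox8 (complex IV) or Atp5 (ATP synthase), without predicted Gm and pseudogene symbols. They comprised 46 symbols of complex I, 8 of complex II, 8 of complex III, 18 of complex IV and 17 of the ATP synthase. By role, 76 were structural subunits, 12 were assembly factors (Ndufaf, Sdhaf), 8 were tissue isoforms and 1, Cox7a2l, was a supercomplex factor. Of the 97, 89 reached 1 FPKM (fragments per kilobase, normalised for sequencing depth) in at least 1 library and are called measured.

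The macrophages were grown with M-CSF, a macrophage growth factor, from marrow of C57BL/6 mice aged 7 weeks. Wild type (WT) and Sema6D-/- cells were each sequenced unstimulated and after LPS, as 1 library per group. LPS, a bacterial surface molecule that macrophages sense through TLR4, was used at 100 ng/ml over 4 h. Because all treatment entries mention LPS, the unstimulated libraries were told by "non" in their titles. The deleted part of Sema6d and the number of mice behind a library were not given in the sources used here. With 1 library per group, no difference below has a replicate check or a test. Values given as series of 4 follow the order WT without LPS, WT with LPS, labelled Sema6D-/- without LPS, labelled Sema6D-/- with LPS.

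The respiratory chain passes electrons from NADH (complex I) and succinate (complex II) through complex III to oxygen at complex IV. Complexes I, III and IV pump protons across the inner mitochondrial membrane, and the ATP synthase uses their return to make ATP. Macrophages activated by LPS are known for a shift toward glycolysis, in which nitric oxide and itaconate act on the chain. Assembly factors help to build the complexes but are not part of the finished enzymes.

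The library labels were checked before the members were read. Sema6d itself measured 0.304, 0.219, 0.563 and 0.592 FPKM, so it was not lower in the labelled Sema6D-/- libraries, and whether the remaining transcript carries the deletion was not tested. The female transcript Xist measured 22.3, 21.4, 0.0333 and 0.0306 FPKM, and 4 Y-linked genes were at 3.36 to 50.4 FPKM in the labelled Sema6D-/- libraries and at most 0.0207 FPKM in WT, so genotype cannot be told apart from sex here. Estimated depth was 17.2 to 23.5 M fragments per library. All 8 macrophage markers were measured, among them Lyz2, Cd68 and Csf1r. Between genotypes their log2 ratios (FPKM + 1, labelled Sema6D-/- over WT) ran from -0.84 to 1.13 without LPS. With LPS these ratios ran from -1.02 to 1.97. Of 8 neutrophil markers 7 were measured, and the list summed to 785, 1174, 238 and 356 FPKM, while the defining marker Ly6g was at 0.275 to 0.45 FPKM. None of 7 lymphocyte, 4 erythroid and 3 mast cell or basophil markers reached 1 FPKM. Of 5 dendritic cell markers 2 were measured, and the list summed to 1.48, 4.2, 2.6 and 7.97 FPKM. Of 4 stromal markers 1 was measured, with sums of 0.163, 1.54, 1.17 and 4.42 FPKM. All 4 markers of cycling cells were measured and summed to 59.2, 61.5, 61.02 and 73.6 FPKM.

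Structural subunits were abundant in all 4 libraries. Their 76 symbols summed to 5476, 6517, 5929 and 6991 FPKM. These sums were 1.48%, 1.22%, 1.6% and 1.11% of all FPKM of the library, so the summed level was higher with LPS in both genotypes and its share of the total was lower. By complex, structural subunits summed in WT without LPS to 1701 FPKM for complex I (37 symbols), 295 FPKM for complex II (4 symbols), 612 FPKM for complex III (8 symbols), 1467 FPKM for complex IV (10 symbols) and 1400.3 FPKM for the ATP synthase (17 symbols). In WT with LPS the corresponding sums were 1957, 323, 689.8, 1897 and 1649 FPKM. Without LPS the labelled Sema6D-/- libraries gave 1902, 330.7, 664, 1554 and 1478 FPKM, and with LPS 2105, 349, 807, 1969 and 1761 FPKM. With LPS all 5 sums were higher, in WT as in the labelled Sema6D-/- libraries, and complex IV differed by more FPKM than any other complex. Assembly factors summed to far less, 73.3, 66.5, 77.4 and 68.5 FPKM over 12 symbols.

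**Figure D1:**
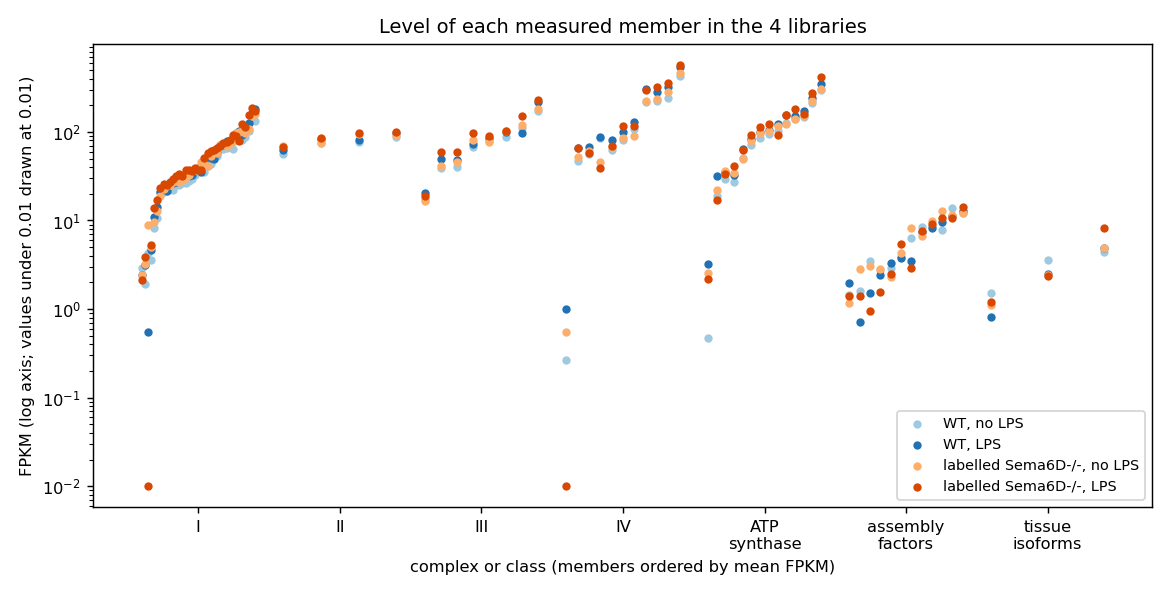
Level of each measured member by complex in the 4 libraries, in FPKM on a log axis. Each point is 1 gene in 1 library; complex IV reaches the highest values, with Cox4i1 at 432 to 569 FPKM.

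Within complex IV, the enzyme that reduces oxygen, Cox4i1 was the most abundant member at 432, 547, 458 and 569 FPKM. Cox6a1, a small subunit of the same enzyme, followed at 240.0, 319, 281 and 353 FPKM. Both were higher in each LPS library than in its unstimulated counterpart. In the ATP synthase the catalytic beta subunit Atp5b measured 295, 351, 302 and 417 FPKM, and the alpha subunit Atp5a1 measured 209.6, 243, 225 and 274 FPKM. In complex III, Uqcrq measured 170.1, 215, 181 and 229.6 FPKM and the hinge protein Uqcrh 111, 97.3, 119 and 151 FPKM. Uqcrh was the only one of these 6 genes lower with LPS in WT. In complex I the accessory subunit Ndufa3 measured 132, 179, 159 and 174 FPKM. Ndufa4, named as a complex I subunit and now placed in complex IV, measured 141, 163, 149.9 and 185 FPKM. In complex II the membrane anchor Sdhc measured 86.8, 96.9, 92.1 and 99.03 FPKM and the iron-sulfur subunit Sdhb 77.4, 81.1, 95.6 and 95.97 FPKM. Sdhb was higher in both libraries labelled Sema6D-/- than in both WT libraries.

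Tissue isoforms that replace a common subunit in muscle, testis or hypoxic cells were low. Ndufa4l2, Cox7b2, Cox8b and Cox8c were listed at 0 in all 4 libraries. The lung and hypoxia isoform Cox4i2 reached at most 0.0945 FPKM, against 432 FPKM or more for Cox4i1. Cox6a2, a heart and skeletal muscle isoform, measured 3.62, 2.5, 2.45 and 2.38 FPKM. Cox6b2, known from testis, measured 1.5, 0.818, 1.11 and 1.19 FPKM. Cox7a1, the muscle isoform, measured 4.38, 4.87, 4.94 and 8.14 FPKM, from 22 to 31 estimated fragments per library. Its ratio with LPS in the labelled Sema6D-/- libraries was 0.72 (-0.07 to 1.56) without the added 1 (95% interval for counting error), which includes 0. Uqcrhl has no row in the gene table used here.

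Some structural subunits gave values that cannot be read as their level. Atp5g2 was listed at 0, and Atp5g1, Atp5l and Cox7c reached at most 0.450, 0.144 and 1.01 FPKM. Every cell with mitochondria uses Atp5l and Cox7c. Atp5g3, of the same Atp5g family as Atp5g1 and Atp5g2, measured 127, 154, 122 and 154 FPKM, and whether the low values of Atp5g1 and Atp5g2 are their levels was not tested. Of the transcript's 50-base stretches, 87.4% in Atp5g2, 68.5% in Atp5l and 53.0% in Cox7c also occurred in transcripts of other genes, mostly pseudogenes, but only 10.6% in Atp5g1. Among the 9 structural subunits under 5 FPKM on average, the median share was 40.6% (range 7.86% to 87.4%). Among the 67 at 5 FPKM or more the median was 0% (range 0% to 53.8%). Ndufs5, an accessory subunit of complex I, measured 4.35, 0.551, 8.81 and 0.00624 FPKM, while the pseudogene symbol Ndufs5-ps, no member, measured 27.2, 36.4, 33.9 and 40.8 FPKM. Ndufs5 shared 41.2% of its stretches, so its values are uncertain. Atp5md, a small subunit of the membrane part, measured 0.469, 3.22, 2.58 and 2.18 FPKM from 3 to 13 estimated fragments and shared 40.6%. The medians by complex that follow use only the 67 structural subunits at 5 FPKM or more in every library.

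LPS came with a small upward difference spread over nearly all of these 67 subunits, in both genotypes. Ratios are log2((FPKM + 1)/(FPKM + 1)), with LPS over without LPS. In WT the median was 0.22, and 63 of 67 were above 0. In the labelled Sema6D-/- libraries the median was 0.21, and 55 of 67 were above 0. The 6110 genes that reached 5 FPKM in each of the 4 libraries had medians of 0.11 and 0.15, so relative to them the subunits' medians stood at 0.11 and 0.06, with 54 and 41 of 67 above. On the scale of a common FPKM total per library, which moves the median of all 6110 genes by -0.51 and -0.72 to -0.39 and -0.57, the subunits' medians were -0.30 and -0.53, below 0 and still above those of the 6110 genes. In bulk RNA, fewer cells and less RNA per cell cannot be told apart. The comparison with all genes depended on the level. At a mean of 50 to 500 FPKM all genes had larger medians, 0.36 and 0.45 (1380 genes), than the 42 structural subunits there, 0.22 and 0.22. At 20 to 50 FPKM all genes had 0.15 and 0.19 (1801 genes) against 0.24 and 0.15 for 21 subunits, and at 5 to 20 FPKM -0.03 and -0.04 (2824 genes) against 0.35 and 0.42 for 3 subunits.

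Past a difference of 1.5-fold there were few members. In WT 3 of 89 were higher with LPS (Atp5k, Atp5md and Cox7c), where 17.3% of 10375 genes were. The 4 that were lower (Ndufs5, Sdhaf1, Sdhaf3 and Ndufaf4) compare with 13.9% of all genes. In the labelled Sema6D-/- libraries 1 of 88 was higher (Cox7a1) against 22% of 10398 genes, and 4 were lower (Ndufs5, Sdhaf1, Sdhaf3 and Ndufaf4) against 20.1%. At 2-fold, 1 member was higher and 1 lower in WT (all genes 10.7% and 4.85%), and 0 were higher and 3 lower in the labelled Sema6D-/- libraries (all genes 14% and 8.81%). The members' shares were below those of all genes in both directions. Of the 7 members past it in WT, 3 were Atp5md, Cox7c and Ndufs5, whose values cannot be read as levels.

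**Figure D2:**
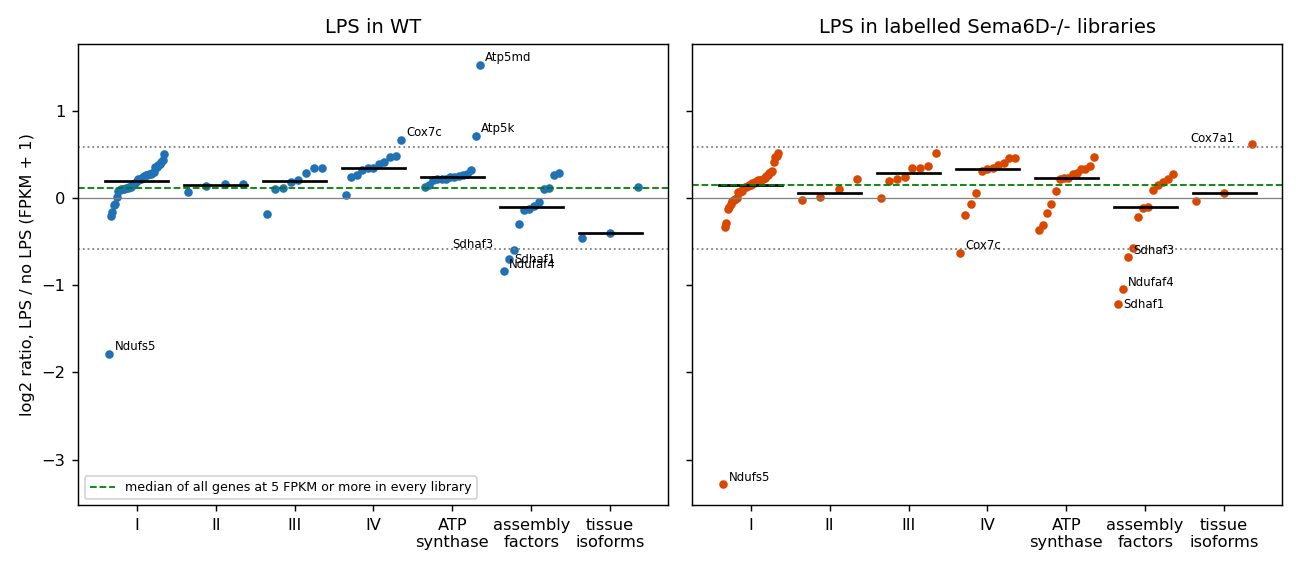
Log2 ratio with LPS over without LPS for each measured member, by group and genotype. Each point is 1 gene, black bars are medians, dotted lines mark 1.5-fold and the green dashed line the median of 6110 genes. The structural subunits of complex IV lie above that line in WT and most do so in the labelled Sema6D-/- libraries. Cox7a2l, drawn in the same column, lies below it at 0.04 and -0.20. Values are as deposited, and a common FPKM total moves points and line below 0 together.

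The complexes differed in the size of this small difference. Complex IV had the largest median, 0.34 in both genotypes over 9 subunits, or 0.23 and 0.19 relative to the 6110 genes. All 9 were above 0 in WT and 8 of 9 in the labelled Sema6D-/- libraries. The 7 catalytic core subunits of complex I encoded in the nucleus had 0.11 and 0.11, and relative to the 6110 genes 0.00 and -0.04. The 26 accessory subunits of complex I had medians of 0.21 and 0.19. Complex II gave 0.15 and 0.05 over 4 subunits, complex III 0.19 and 0.29 over 8, and the F1 head of the ATP synthase 0.21 and 0.28 over 5. The other ATP synthase subunits gave 0.25 and 0.23 over 8. On the common-total scale every one of these medians was below 0, from -0.19 and -0.41 for complex IV to -0.40 for the complex I core in WT and -0.70 for complex II in the labelled Sema6D-/- libraries. Differences between complexes of this size were not tested.

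Single subunits show what these medians are made of. Cox8a, a small subunit of complex IV, measured 218, 305, 224 and 296 FPKM. Its fold without the added 1 was 0.49 (0.40 to 0.57) in WT and 0.40 (0.31 to 0.50) in the labelled Sema6D-/- libraries (log2, 95% interval for counting error only). Neither interval reached 0 on the deposited scale, while a common FPKM total would move these ratios by -0.51 and -0.72. Among complex III subunits the Rieske iron-sulfur protein Uqcrfs1 had the highest ratio in both genotypes, 0.34 and 0.52, from levels of 39.2, 49.96, 41.3 and 59.5 FPKM. Both LPS libraries lay above both unstimulated ones. In complex I, Ndufa1, needed for assembly of the membrane arm, measured 103, 125, 108 and 156 FPKM with ratios of 0.28 and 0.52. Ndufa7 and Ndufs4 had ratios of 0.41 and 0.38 in WT and 0.47 and 0.49 in the labelled Sema6D-/- libraries. In the opposite direction, Ndufc1 measured -0.17 and -0.03, and the core subunit Ndufs7 -0.08 and -0.29. The catalytic subunit Sdha of succinate dehydrogenase had ratios of 0.14 and 0.21, and Sdhb 0.07 and 0.01.

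Assembly factors did not share the upward difference. Over the 12 the medians were -0.11 in both genotypes, with 4 of 12 above 0 in WT and 5 of 12 in the labelled Sema6D-/- libraries. The common-total scale gave -0.54 and -0.80. Assembly factors are low in level, from 1.5 to 12.8 FPKM on average. All genes at a mean of 5 to 20 FPKM, and at 5 FPKM or more in every library, had medians of -0.03 and -0.04. That set does not cover the factors with a mean under 5 FPKM, among them Ndufaf4 (2.24 FPKM) and Sdhaf3 (1.63 FPKM). Sdhaf1, which helps to insert iron-sulfur clusters into Sdhb, measured 6.31, 3.5, 8.12 and 2.91 FPKM. Without the added 1 its ratio was -0.85 (-1.12 to -0.59) in WT and -1.48 (-1.8 to -1.17) in the labelled Sema6D-/- libraries. Both LPS libraries lay below both unstimulated ones. Ndufaf4, an early complex I assembly factor, measured 3.48, 1.5, 3.03 and 0.946 FPKM, with ratios of -1.21 (-1.54 to -0.89) and -1.68 (-2.14 to -1.25). Sdhaf3, which acts with Sdhaf1, measured 1.59, 0.714, 2.83 and 1.39 FPKM, with ratios of -1.15 (-1.59 to -0.72) and -1.03 (-1.38 to -0.68), so that the LPS libraries again lay below both unstimulated ones. The other 9, among them Ndufaf1, Ndufaf2, Ndufaf8 and Sdhaf4, were within 1.5-fold in both genotypes with the added 1. Without it Ndufaf6 was past 1.5-fold in the labelled Sema6D-/- libraries, at -0.85 (-1.57 to -0.11).

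**Figure D3:**
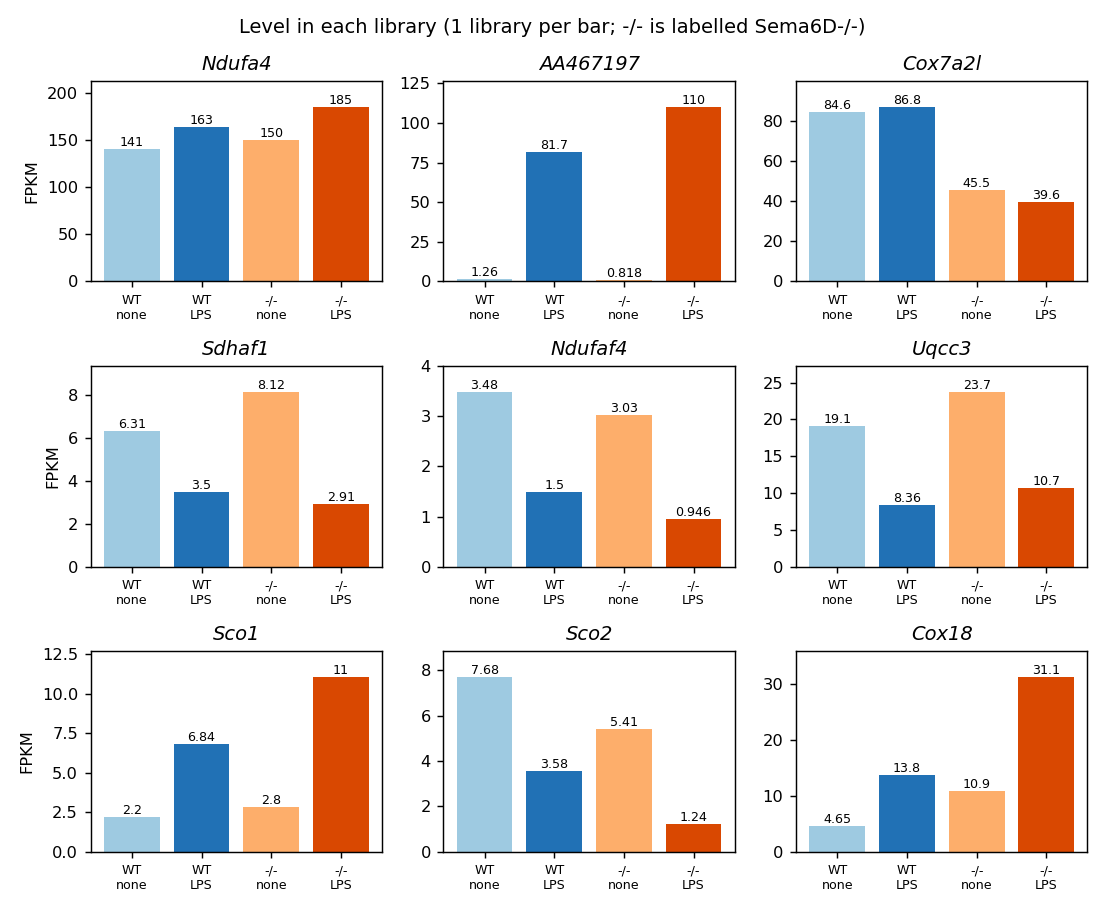
FPKM in each of the 4 libraries for Ndufa4, AA467197, Cox7a2l, Sdhaf1, Ndufaf4, Uqcc3, Sco1, Sco2 and Cox18, with 1 bar per library. AA467197 goes from 1.26 and 0.818 FPKM without LPS to 81.7 and 110.0 FPKM with LPS, and Cox7a2l separates the genotypes at 84.6 and 86.8 against 45.5 and 39.6 FPKM.

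Assembly factors outside the prefixes differed in both directions. Of 32 listed, 29 were measured, and the medians were 0.00 for WT and -0.06 in the labelled Sema6D-/- libraries. In WT 5 were higher and 5 lower by more than 1.5-fold (17.2% each, all genes 17.3% and 13.9%), and in the labelled Sema6D-/- libraries 5 were higher and 7 lower (17.2% and 24.1%, all genes 22% and 20.1%), so these shares were near those of all genes. Sco1 and Sco2 both deliver copper to complex IV. Sco1 measured 2.2, 6.84, 2.8 and 11.03 FPKM and Sco2 7.68, 3.58, 5.41 and 1.24 FPKM. With LPS Sco1 was higher and Sco2 lower in both genotypes, with ratios of 1.29 and 1.66 against -0.92 and -1.51. Cox17, the copper chaperone that supplies both, measured 73.9, 98.5, 59.01 and 124 FPKM. Cox18, which inserts a complex IV core subunit into the membrane, measured 4.65, 13.8, 10.9 and 31.1 FPKM and was higher with LPS (1.39 and 1.43). Uqcc3, a complex III assembly factor, measured 19.1, 8.36, 23.7 and 10.7 FPKM and was lower with LPS (-1.11 and -1.07). Complex I factors differed in direction. Ecsit had ratios of -0.76 and -1.3, Tmem126b -0.92 and -1.22, and Tmem186 -0.97 and -1.09. Foxred1 was higher at 0.69 and 0.59. Acad9, Timmdc1 and Nubpl were within 1.5-fold.

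An LPS ratio larger than that of any member belonged to a relative of Ndufa4. AA467197, the mouse counterpart of human C15orf48 (NMES1), encodes a protein related to Ndufa4 that in human cells can take its place in complex IV. It measured 1.26, 81.7, 0.818 and 110.0 FPKM. Without the added 1 the ratio was 6.02 (5.44 to 6.67) in WT and 7.07 (6.26 to 8.11) in the labelled Sema6D-/- libraries. Both LPS libraries lay far above both unstimulated ones. Ndufa4 itself had ratios of 0.21 and 0.30, so its FPKM with LPS was above that of AA467197 in both genotypes. The third relative, Ndufa4l2, was listed at 0. The enzymes whose products act on the chain were higher with LPS. Nos2, which makes nitric oxide, measured 0.598, 128, 1.98 and 449 FPKM. Acod1, which makes itaconate, an inhibitor of succinate dehydrogenase, measured 131, 3917, 357 and 5883 FPKM.

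Regulators linked to respiratory genes of the nucleus or of mitochondrial DNA, coactivators among them, differed in direction. Of 14 listed regulators 13 were measured, 4 higher and 2 lower past 1.5-fold in WT (30.8% and 15.4%, all genes 17.3% and 13.9%) and 3 higher and 2 lower in the labelled Sema6D-/- libraries (23.1% and 15.4%, all genes 22% and 20.1%). Gabpa and Gabpb1, the subunits of the ETS factor NRF2/GABP, had ratios of 0.71 and 0.70 in WT and 0.77 and 1.16 in the labelled Sema6D-/- libraries. Hif1a, a hypoxia factor, had 1.31 and 1.34. Polrmt, the mitochondrial RNA polymerase, measured 6.03, 3.17, 6.45 and 2.75 FPKM and was lower with LPS. Myc measured 20.3, 12.9, 7.84 and 2.63 FPKM, lower with LPS in both genotypes and lower in both libraries labelled Sema6D-/- than in WT at the same state. The coactivator Ppargc1a was at most 0.0398 FPKM, near 0 in all 4 libraries. Mitochondrially encoded subunits were not analysed here.

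The start regions of 4 members on which the results turn are printed to show the letters that were searched. They come from RefSeq, mouse build GRCm38.p6, with 250 bases before and 50 after the annotated start, 5′ to 3′ on the gene's strand. Capitals mark matches to the ETS motif CCGGAAG or the NRF1 core motif CGCATGCG on either strand. Cox8a is shown for the highest WT ratio in complex IV among measured genes at 5 FPKM, Sdhaf1 and Ndufaf4 as the assembly factors lowest with LPS, and Cox7a2l for its genotype difference, described further on.
Cox8a, chr19:7217567-7217866, minus strand: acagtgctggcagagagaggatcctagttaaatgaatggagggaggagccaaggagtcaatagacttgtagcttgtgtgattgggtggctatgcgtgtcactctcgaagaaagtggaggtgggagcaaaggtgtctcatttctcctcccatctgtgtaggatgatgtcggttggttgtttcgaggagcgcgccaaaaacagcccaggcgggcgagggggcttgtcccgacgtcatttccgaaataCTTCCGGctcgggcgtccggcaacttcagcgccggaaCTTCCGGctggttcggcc
Sdhaf1, chr7:30322326-30322625, minus strand: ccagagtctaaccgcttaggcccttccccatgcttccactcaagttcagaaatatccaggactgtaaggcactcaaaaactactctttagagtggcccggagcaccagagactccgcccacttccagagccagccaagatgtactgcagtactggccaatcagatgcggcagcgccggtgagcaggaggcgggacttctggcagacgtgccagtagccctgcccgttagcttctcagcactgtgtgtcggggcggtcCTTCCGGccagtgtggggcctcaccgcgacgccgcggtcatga
Ndufaf4, chr4:24897833-24898132, plus strand: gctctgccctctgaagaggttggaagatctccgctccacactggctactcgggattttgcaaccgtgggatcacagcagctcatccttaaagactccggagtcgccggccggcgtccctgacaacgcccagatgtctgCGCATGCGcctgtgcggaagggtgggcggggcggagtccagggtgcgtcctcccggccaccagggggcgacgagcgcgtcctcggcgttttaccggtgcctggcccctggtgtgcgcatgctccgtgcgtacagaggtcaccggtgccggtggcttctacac
Cox7a2l, chr17:83514284-83514583, minus strand: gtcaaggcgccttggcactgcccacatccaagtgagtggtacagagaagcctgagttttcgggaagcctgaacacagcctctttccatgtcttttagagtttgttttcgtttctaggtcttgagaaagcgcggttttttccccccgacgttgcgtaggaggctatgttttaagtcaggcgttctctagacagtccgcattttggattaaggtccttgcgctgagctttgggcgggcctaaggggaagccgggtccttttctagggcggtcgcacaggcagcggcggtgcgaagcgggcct
Cox8a held 2 ETS matches, Sdhaf1 held 1, and Ndufaf4 held 1 NRF1 match. The Cox7a2l window had no match, which says only that these letters are not in it. Of 64 structural subunits with a window, 26.6% held an ETS match, against 12.9% of 17491 protein-coding genes. The NRF1 motif was in 14.1% against 2.8%, and the YY1 motif AAGATGGC in 15.6% against 3.6%. The letters of the ETS and YY1 motifs can overlap by their shared AAG. ETS matches were in 12.1% of complex I windows (33 genes), 37.5% for complex IV (8 genes), 40% for complex III (5 genes) and 40% for the ATP synthase (15 genes). Assembly factors held an ETS match in 45.5% of 11 windows. A link between motifs and LPS ratios was not tested. A match is a description of the sequence, not a binding site.

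Between genotypes, the respiratory chain as a whole differed little and 1 member stood apart. Without LPS the measured members had a median of 0.11 (labelled Sema6D-/- over WT), where all genes had 0.04, and 3 of 88 were higher by 1.5-fold (Atp5md, Ndufs5 and Ndufaf3) against 6.96% of 10322 genes. The 1 lower member was Cox7a2l, against 5.82%. With LPS the median was 0.12, where all genes had 0.04, and 2 of 88 were higher (Uqcrh and Cox7a1) against 10% of 10078 genes. The 3 lower members were Cox7a2l, Cox7c and Atp5k, against 7.91%. At 2-fold, 1 member was higher without LPS (Atp5md; all genes 2.51%) and 0 were lower (all genes 2.19%), and with LPS 0 were higher (all genes 3.09%) and 2 lower (Cox7a2l and Cox7c; all genes 3.18%). On the common-total scale the median with LPS was -0.11, where all genes had -0.16. Of the 67 structural subunits at 5 FPKM, 59 were above 0 without LPS and 51 with LPS. Of the 6110 genes at that level in every library, 3289 and 3567 were above 0. Relative to the median of those genes, 56 and 40 of the 67 subunits were above. Sex differs between these libraries as the genotype labels do, and the neutrophil markers differ by about as much in both states, with 785 and 1174 FPKM in WT against 238 and 356 FPKM. Their part in these differences was not tested. The 3 X-linked structural subunits Ndufa1, Ndufb11 and Cox7b had medians of 0.14 and 0.15, near those of the other subunits.

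Cox7a2l, a factor linked to supercomplexes of complex III and complex IV, measured 84.6, 86.8, 45.5 and 39.6 FPKM. Both libraries labelled Sema6D-/- lay below both WT libraries, and the LPS ratios were 0.04 and -0.20. Without the added 1 the genotype ratio was -0.90 (-1.01 to -0.78) without LPS and -1.13 (-1.27 to -1.0) with LPS. All of the signal was on transcript NM_009187, and the other transcript in the tables, NM_001159529, was at 0. A share of 19.8% of its 50-base stretches also occurs in the pseudogene Gm6969. The neighbouring genes that reached 1 FPKM in at least 1 library, Eml4, Mta3 and Haao, were not lower. Mta3 and Haao lie on the same side of Cox7a2l, and Haao was low at 0.317, 0.145, 1.4 and 0.53 FPKM. Eml4 had genotype ratios of 0.24 and 0.71, Mta3 0.15 and 0.22, and Haao 0.86 and 0.42. Laboratory mouse strains carry a longer or a shorter form of this protein, and the labels name C57BL/6 for all 4 libraries. Which form these cells make was not examined, and whether it acts in supercomplexes here was not tested. The paralog Cox7a2, a complex IV subunit, measured 62.3, 82.05, 67.2 and 70.1 FPKM, with genotype ratios of 0.11 and -0.22.

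**Figure D4:**
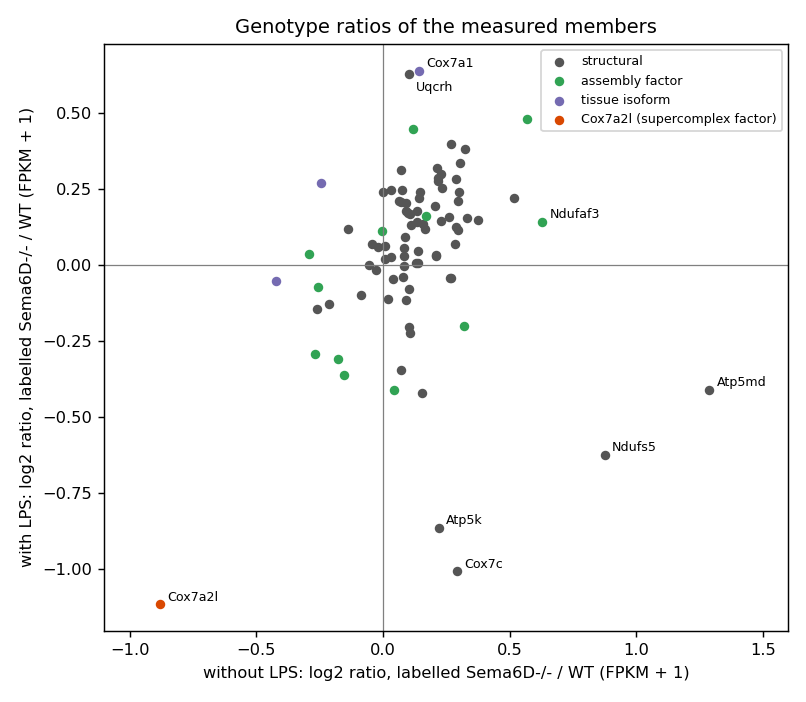
Log2 ratio of labelled Sema6D-/- over WT with LPS against the same ratio without LPS for the measured members. Each point is 1 gene; Cox7a2l lies alone at -0.88 without LPS and -1.11 with LPS, and sex and neutrophil marker level differ between the same libraries.

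Other members differed less, in 1 state or in both. Ndufaf3, a complex I assembly factor, measured 7.83, 9.62, 12.7 and 10.7 FPKM, with genotype ratios of 0.63 without LPS and 0.14 with LPS. Uqcrh had ratios of 0.10 without LPS and 0.63 with LPS, from the 4 levels given above. Its counting interval with LPS was 0.63 (0.49 to 0.77). The WT library with LPS was the lowest of the 4 and the labelled Sema6D-/- library with LPS the highest. Cox5a, a complex IV subunit, was lower in both states at -0.26 and -0.14. Ndufa6 had the highest genotype ratio among complex I structural subunits with LPS, 0.38, and 0.32 without LPS. Uqcrc1, a core protein of complex III, had 0.27 and 0.40. Of the 29 assembly factors outside the prefixes, 1 was higher and 0 lower by 1.5-fold without LPS (all genes 6.96% and 5.82%), and 2 were higher and 2 lower with LPS (6.9% each, all genes 10% and 7.91%), no more often than all genes. Cox18 was higher in both states (1.08 and 1.12), and Sco2 had -0.44 without LPS and -1.03 with LPS. Among the regulators, Tfb1m, a methyltransferase of the mitochondrial ribosome, had 0.80 and 0.91, and Myc -1.27 and -1.94.

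The LPS responses of the subunits were then set against each other by subtracting the WT ratio from that of the labelled Sema6D-/- libraries. The median of the members was -0.01, as for all genes. None of 89 was higher by more than 1.5-fold, against 5.57% of 10680 genes, and 4 were lower (Atp5md, Ndufs5, Cox7c and Atp5k), against 5.71%. The same 4 were lower by 2-fold and 0 were higher, where all genes had 1.25% and 1.83%. Of these 4, Atp5md, Ndufs5 and Cox7c have values that cannot be read as levels. With a 5 FPKM filter, 2 of 78 members were past 1.5-fold in either direction (2.56%, all genes 11.3%). Atp5k, subunit e of the membrane part, measured 18.8, 31.5, 22.1 and 16.9 FPKM. LPS gave 0.74 (0.37 to 1.11) in WT and -0.39 (-0.88 to 0.09) in the labelled Sema6D-/- libraries, from 58 to 131 estimated fragments. On the deposited scale the interval excluded 0 in WT and reached it in the labelled Sema6D-/- libraries. Atp5mpl, another small subunit of the membrane part, had ratios of 0.26 and -0.32, and Ndufb8 0.08 and -0.33. On the positive side stood Uqcrh at a difference of 0.53. Across the 67 structural subunits the LPS ratios of the genotypes, which share no library, had a Pearson correlation of 0.28 and a Spearman correlation of 0.49 (a description across genes that share library depth). Across 6110 genes the corresponding values were 0.93 and 0.90, over a much wider range of ratios. Among the 67, 53 were above 0 in both genotypes, 2 below 0 in both and 12 opposite. Among the 6110 genes these counts were 3357, 1936 and 817.

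**Figure D5:**
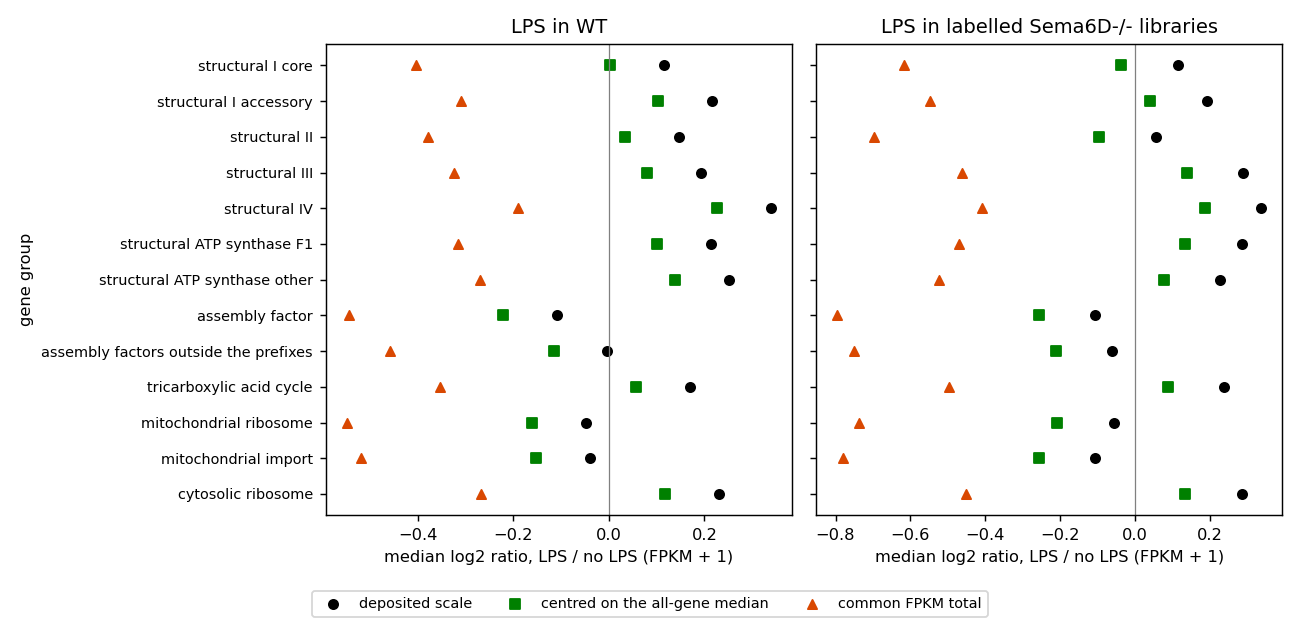
Median log2 LPS ratio by group on 3 scales: as deposited, centred on the median of 6110 genes, and rescaled to a common FPKM total, with structural groups limited to the 67 subunits at 5 FPKM or more in every library. The LPS medians of the structural groups are above 0 as deposited and below 0 on the common-total scale, as is that of all genes, and the LPS medians of the assembly factors lie below those of the structural subunits on each scale.

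The tricarboxylic acid cycle, which feeds the chain with NADH and succinate, had LPS medians near those of the subunits. All 13 enzymes were measured, their medians being 0.17 for WT and 0.24 in the labelled Sema6D-/- libraries, and 12 and 11 were above 0. Citrate synthase (Cs) measured 71.96, 78.4, 72.7 and 93.6 FPKM and malate dehydrogenase (Mdh2) 127, 131, 108 and 129.7 FPKM. Dld, a subunit shared by the 2-oxoacid dehydrogenases, measured 31.9, 41.5, 37.7 and 64.7 FPKM and was the only one past 1.5-fold, in the labelled Sema6D-/- libraries. On the common-total scale, which moves all genes down, these medians were -0.35 and -0.50. Of 5 measured electron carriers and related genes outside the prefixes, 4 were above 0 with LPS in each genotype, as deposited. Cyc1, the cytochrome c1 of complex III, measured 46.2, 52.9, 50.3 and 59.6 FPKM, and Atpif1, the inhibitor of the ATP synthase, 47.8, 64.01, 50.9 and 70.1 FPKM. Cycs, cytochrome c, was listed at 0.125 to 0.631 FPKM, although it is needed by every respiring cell, so its level cannot be read here.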

How the data were processed

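Messenger RNA was measured in 4 libraries, 1 per group. The values deposited by the authors are FPKM per RefSeq transcript, 34487 in each file. The submitters' processing notes name Cuffnorm 2.2.1, SAMtools 0.1.19, TopHat2 2.0.13 with Bowtie2 2.2.3, and the mouse build mm9, while the scaling between libraries was not given in the sources used here.

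Transcripts were named from RefSeq (34159) or GENCODE (191), 137 were left out, and values were summed per symbol. Groups follow the library titles. Ratios used an added 1 FPKM, genes at 1 FPKM or more in a compared library and a size of 1.5-fold, with no test, p-value or SD, since each group has 1 library. Depth was estimated from the steps of low FPKM values, of which 71.9% to 75.4% lay within 0.1 of a whole fragment (20% by chance). The tables hold no counts, so fragment numbers and their 95% exact intervals are estimates that cover counting error only. Named members were the 2 most abundant of each complex, the highest and lowest ratio of each comparison at 5 FPKM, members past 2-fold and all tissue isoforms. Subunits named beyond these were chosen after their values were seen. The members and lists were chosen with earlier results of these data known. Alternatives covered the added value, the filter, the scaling, the transcripts and the members. Shared 50-base stretches came from GENCODE transcripts, and start regions from RefSeq, neither with mm9 coordinates. The ratio step was tested on simulated data. Python 3.11.15, numpy 2.4.6, pandas 2.3.3, scipy 1.17.1 and matplotlib 3.10.9 were used.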

Additional observations from a re-analysis of the deposited data

Results flagged for a closer look

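Of 89 measured members, 19 had LPS ratios of opposite sign in the genotypes. In 3 of them the ratios also differed by 1.5-fold or more, and these differences were not tested. At 5 FPKM or more in every library, 12 of 67 structural subunits and 817 of 6110 genes had opposite signs. Whatever the signs, the ratios differed by 1.5-fold or more in 4.49% of the measured members and 11.3% of all genes. For Atp5k the ratio in the labelled Sema6D-/- libraries minus that in WT was -1.08, from 58 to 131 estimated fragments. For Atp5md it was -1.70, from 3 to 13 fragments, and for Cox7c -1.30, from 0 to 8 fragments. Atp5md and Cox7c share 40.6% and 53.0% of their 50-base stretches with other genes.

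A signal was also present in a symbol left out of the members. The pseudogene symbol Ndufs5-ps reached 40.8 FPKM in the library labelled Sema6D-/- with LPS, while Ndufs5 was at 0.00624 FPKM there.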

How the results depend on the processing

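No paired analysis was possible because each group has 1 library and the labels share no replicate numbers across groups. Leaving out a library would leave a group empty. A common FPKM total moves all genes down with LPS, so the sign of a median there says nothing of the members alone. On it the LPS medians came to -0.31 in WT and -0.54 in the labelled Sema6D-/- libraries, the genotype median with LPS was -0.11, and the difference of responses was -0.22, where all genes had -0.47, -0.66, -0.16 and -0.19. That scale put 14, 36, 3 and 7 members past 1.5-fold in these comparisons, against 7, 5, 5 and 4 as deposited. Of all genes 49.8%, 65.6%, 18.3% and 14.2% were past it on that scale, against 15.9%, 40.9%, 3.49% and 7.95% of the members. With LPS in WT the count was 3 of 89 with 5 added, where all genes had 18.5%. It was 2 of 74 with a 5 FPKM filter (all genes 32%) and 4 of 73 over structural subunits (all genes 31.2%). With LPS in the labelled Sema6D-/- libraries it was 2 of 88, 3 of 78 and 1 of 72 under the same settings. All genes had 25.8%, 42.8% and 42.1% there. Between genotypes without LPS it was 1 of 88 with 5 added and 2 of 72 over structural subunits, against 4 of 88. All genes had 6.32%, 12.8% and 12.8%. Between genotypes with LPS it was 8 with 0.1 added, 3 with 5 added and 3 after centring, each of 88. Over structural subunits it was 3 of 72. All genes had 23.1%, 9.88%, 18% and 17.9%. For the difference it was 7 of 89 with 0.1 added and 2 of 78 with the 5 FPKM filter (all genes 17.2% and 11.3%). Under the 9 alternatives the other counts were within 1.5 times of those as deposited. The cause of these changes was not tested. Depth limits the members under 5 FPKM, whose counting intervals are wide.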

Other observations

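Other mitochondrial and ribosomal genes, listed by name, gave the following values. The mitochondrial ribosome had LPS medians of -0.05 in WT (77 of 78 measured) and -0.06 in the labelled Sema6D-/- libraries (76 of 78), below those of the structural subunits. Past 1.5-fold, 3 were higher and 3 lower in WT (all genes 17.3% and 13.9%), and 5 higher and 11 lower in the labelled Sema6D-/- libraries, where all genes had 22% and 20.1%. Mrps35 measured 8.17, 5.38, 12.6 and 5.71 FPKM. In the other direction Mrpl39 measured 16.4, 39.5, 19.4 and 56.9 FPKM, and Mrpl52 79.1, 159.7, 163 and 276 FPKM. Mitochondrial import genes had medians of -0.04 and -0.11 over 23 of 26. Among them Timm9, a chaperone of the space between the membranes, had LPS ratios of -1.55 and -1.53, and the import receptor Tomm70a 0.76 and 1.30. Cytosolic ribosomal proteins had medians of 0.23 and 0.28 over 59 genes each, close to the structural subunits. All of these LPS medians were below 0 on the common-total scale, as was that of all genes.

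Between genotypes, 3 cytosolic ribosomal genes (Rpl3, Rps2 and Rplp0) were at least 2-fold lower in both libraries labelled Sema6D-/-. They were among 57 measured without LPS and 60 with LPS, where 2.19% and 3.18% of all genes were as much lower. Past 1.5-fold, 5 were lower without LPS (8.77%, all genes 5.82%) and 4 with LPS (6.67%, all genes 7.91%). In the other direction 0 and 1 were higher (all genes 6.96% and 10%). Rpl3 measured 23.9, 24.8, 0.193 and 0.26 FPKM, Rps2 74.8, 90.3, 3.64 and 5.29 FPKM, and Rplp0 241, 273, 108 and 125 FPKM. Copies of these genes in the genome were not examined.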
